A study of Mus musculus with 47 samples.

Results

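The proteasome subunit genes of mouse tibialis anterior muscle were followed across 12 groups of mice that differed in adrenal state, hormone injection, clock genotype and time of day. The members are the protein-coding genes whose symbol starts with Psma, Psmb, Psmc, Psmd, Psme, Psmf or Psmg, without the interferon-inducible Psmb8, Psmb9 and Psmb10. The rule found 45 genes among the 13500 in the table, of which 11504 are protein-coding. They comprise 7 genes of the 20S alpha ring, 7 of the 20S beta ring, 6 ATPases and 11 non-ATPases of the 19S cap, 7 assembly chaperones, 5 activators and the regulator Psmf1. The last member, Psmc3ip, shares only the start of its symbol and encodes no subunit. All 45 passed the filter on low values, and none was listed at 0 in any library.

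The proteasome is the barrel-shaped protease that degrades ubiquitin-tagged proteins. In the 20S core, outer alpha rings gate the entrance and inner beta rings carry the cutting sites, while the 19S cap recognises ubiquitin, removes it and unfolds the substrate with a ring of ATPases. In skeletal muscle this pathway removes myofibrillar proteins during fasting, disuse and glucocorticoid excess, and the transcription factor Nfe2l1 raises many subunit genes together when proteasome activity is short.

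All mice were female C57BL/6, 8 to 18 weeks old and fed without restriction. Muscle was taken at Zeitgeber time 0 (ZT0, lights on) or 12 (ZT12, lights off). Wild-type (WT) mice were sham-operated (9 to 11 weeks of age at ZT0 and 10 to 12 at ZT12) or had both adrenal glands removed (ADX; 12 to 15 and 13 to 17 weeks) and then drank saline with glucose. A further pair of adrenalectomized WT groups received intraperitoneal injections at ZT12 for 10 days, either adrenaline at 0.5 mg/kg (ADR; 14 and 13 to 14 weeks) or dexamethasone, a synthetic glucocorticoid, at 5 mg/kg (DEX; 11 to 14 and 14 weeks). The series text puts 2 weeks between treatment and sampling, and no adrenalectomized group injected with vehicle was analysed here, so injection and hormone cannot be told apart. The RE-RE mice carry Bmal1(stopFL/stopFL), Syt10-Cre(-/tg) and Hsa-Cre(-/tg), a design in which the clock gene Bmal1 is silenced by a stop cassette until Cre removes it. The Syt10 promoter drives Cre in the brain, including the central clock, and Hsa in muscle fibres, so that other cells of the muscle are left without Bmal1. RE-RE mice were sham-operated (9 to 14 and 11 to 14 weeks) or adrenalectomized (8 to 15 and 12 to 18 weeks). At each time all WT ADX and ADR mice were older than all WT sham mice, and so were the DEX mice at ZT12. Age and treatment therefore cannot be told apart where these groups are compared with WT sham. Each of the 12 groups had 4 libraries except WT ADX at ZT0, which had 3. The labels do not say whether each library came from a separate mouse, so p-values measure the spread between these samples.

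The values are FPKM (fragments per kilobase of transcript, scaled to the mapped reads of the library) from 60-base single-end reads, and the depth of each library is not known. Muscle fibre markers were high in every library (creatine kinase Ckm 10163 to 17797 FPKM, fast myosin Myh4 5104 to 10582 FPKM). Arntl, the gene of Bmal1, was at 13.4 to 15.2 FPKM in RE-RE sham muscle at ZT0 and at 14.2 to 18.8 FPKM in WT sham muscle. At ZT12, when it is near its daily low, Arntl was listed at 0 in 1 WT sham and 3 RE-RE sham libraries and was at 0.758 FPKM or less in the others, so that at this time it does not tell the genotypes apart. By their low values, 7 of the 47 libraries stood apart from the others of their group: WT sham replicates 4 (ZT0) and 8 (ZT12), RE-RE sham 2 (ZT0) and 6 (ZT12), and RE-RE ADX 1 and 4 (ZT0) and 5 (ZT12). They shared at most 1 exact low value with their group, against 16 to 80 for the other 40. Nnt, a gene that is deleted in some C57BL/6 substrains, had a listed level of 0 in 9 libraries, namely the 7 of WT ADX and 2 of WT sham at ZT12, and was at 9.86 to 15.4 FPKM in the 16 injected libraries. Substrain and treatment therefore cannot be told apart where WT ADX is compared with another group. WT sham at ZT12 was mixed for Nnt, so comparisons that use it, time of day in WT sham included, share part of this limit. Some genes that are otherwise abundant (Col1a1, Col3a1 and Fn1 in both DEX groups) were listed at 0 in whole groups. The same held for Fos in WT ADX at ZT0, Junb in DEX at ZT0, and Fos and Fosb in WT sham at ZT12. The exons of 5 members overlap those of an opposite-strand gene by 8.25% to 25.5% of their length (Psmb7, Psmc3, Psmc3ip, Psmd9 and Psmd13) and, since the strand setting is not given in the sources used here, reads of such pairs cannot be separated. Psme2 and Psme2b are near-identical copies that can share reads.

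Of the 45 members, 38 had at least 1 promoter window in RefSeq (GRCm38.p6), 41 windows in all, each from 250 bases before to 50 after the start site. Members with a motif and members without one are shown by the 120 bases before the start, 5′ to 3′, since Psmb5 and Psmb6 encode cutting sites and Psma5 and Psmd8 are the core subunits with the widest range across the groups. Capitals mark the letters TGACNNNGC, the antioxidant response element through which Nfe2l1 and Nfe2l2 bind.
Psmb5 (chr14:54617996-54618115, minus strand): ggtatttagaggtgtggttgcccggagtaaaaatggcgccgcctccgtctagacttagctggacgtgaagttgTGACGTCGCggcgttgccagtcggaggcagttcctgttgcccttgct
Psmb6 (chr11:70525237-70525356, plus strand): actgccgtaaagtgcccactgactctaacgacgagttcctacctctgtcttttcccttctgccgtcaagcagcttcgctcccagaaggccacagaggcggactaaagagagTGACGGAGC
Psma5 (chr3:108256806-108256925, plus strand): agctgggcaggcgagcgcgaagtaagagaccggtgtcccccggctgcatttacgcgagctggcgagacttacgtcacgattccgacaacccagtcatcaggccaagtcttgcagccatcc
Psmd8 (chr7:29180674-29180793, minus strand): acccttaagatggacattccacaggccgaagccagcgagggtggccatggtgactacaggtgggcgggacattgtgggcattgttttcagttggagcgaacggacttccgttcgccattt
The match starts 47 bases before the start site in Psmb5 and 9 before it in Psmb6. The Psma5 and Psmd8 windows held none of the motifs searched on both strands, which says only that these letters are not in the window. TGACNNNGC was in 6 of 41 member windows (14.6%; Psmb5, Psmb6, Psmc6, Psmd9, Psmd12 and Psme4) and in 12.4% of all 32851 windows. CCAAT was in 31.7% of member windows and 37.4% of all. The E-box CACGTG, the letters bound by Bmal1, was in 3 (7.32%; Psma4, Psmd9 and Psme3) against 7.15%. The glucocorticoid element ACANNNTGT was in 1 (2.44%; Psme2b) against 6.85%, and the D-box TTATGNAAT in none against 0.825%. No motif stood out among the members, and a match is not evidence of binding.

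The core subunits were abundant, and most varied less over the libraries than the median gene. Mean levels over all libraries were 20.2 to 76.6 FPKM in the alpha ring, 18.8 to 142.8 in the beta ring, 22.8 to 82.5 among the ATPases and 15.2 to 86.1 among the non-ATPases. Psmb7, which carries the trypsin-like site, was the highest member in all 47 libraries (126 to 156 FPKM) and was called in no comparison. The assembly chaperones were lower, with means of 1.32 (Psmg3) to 16.2 FPKM (Psmg2), as was Psmf1 (2.46 FPKM). Psmc3ip lay at 0.879 FPKM. The standard deviation of log2 FPKM over the 47 libraries had a median of 0.11 over the 31 genes of the 20S core and 19S cap and 0.23 over all genes, and 29 of the 31 lay below the latter. Genes of like level were not compared, so the part of abundance in this low spread was not tested.

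Between the lowest and the highest of the 12 group means the core genes spanned a median of 1.24-fold. Only Psma5 (1.81-fold) and Psmd8 (1.84-fold) exceeded 1.5-fold, and Psmb7 spanned the least (1.09-fold). Outside the core, Psme1 spanned 2.42-fold, Psme2 2.00-fold, Psme2b 1.87-fold, Psmg4 1.77-fold and Psmg2 1.63-fold. The summed level of the 31 core genes ran from 1375.5 to 1710.5 FPKM, 1.24-fold. Its lowest group was ADR at ZT0 (1375.5 to 1389.2 FPKM in the 4 libraries) and its highest RE-RE sham at ZT12 (1611.2 to 1710.5 FPKM). These groups were picked by this sum, and they differ in genotype, adrenal state, injection and time. WT sham at ZT0 lay at 1497 to 1529.8 FPKM and WT ADX at ZT0 at 1463 to 1614.7. In the heat map of all members, the ADR columns are low for most alpha-ring, ATPase and non-ATPase genes, and Psmd8 is high in both DEX columns.

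**Figure D1:**
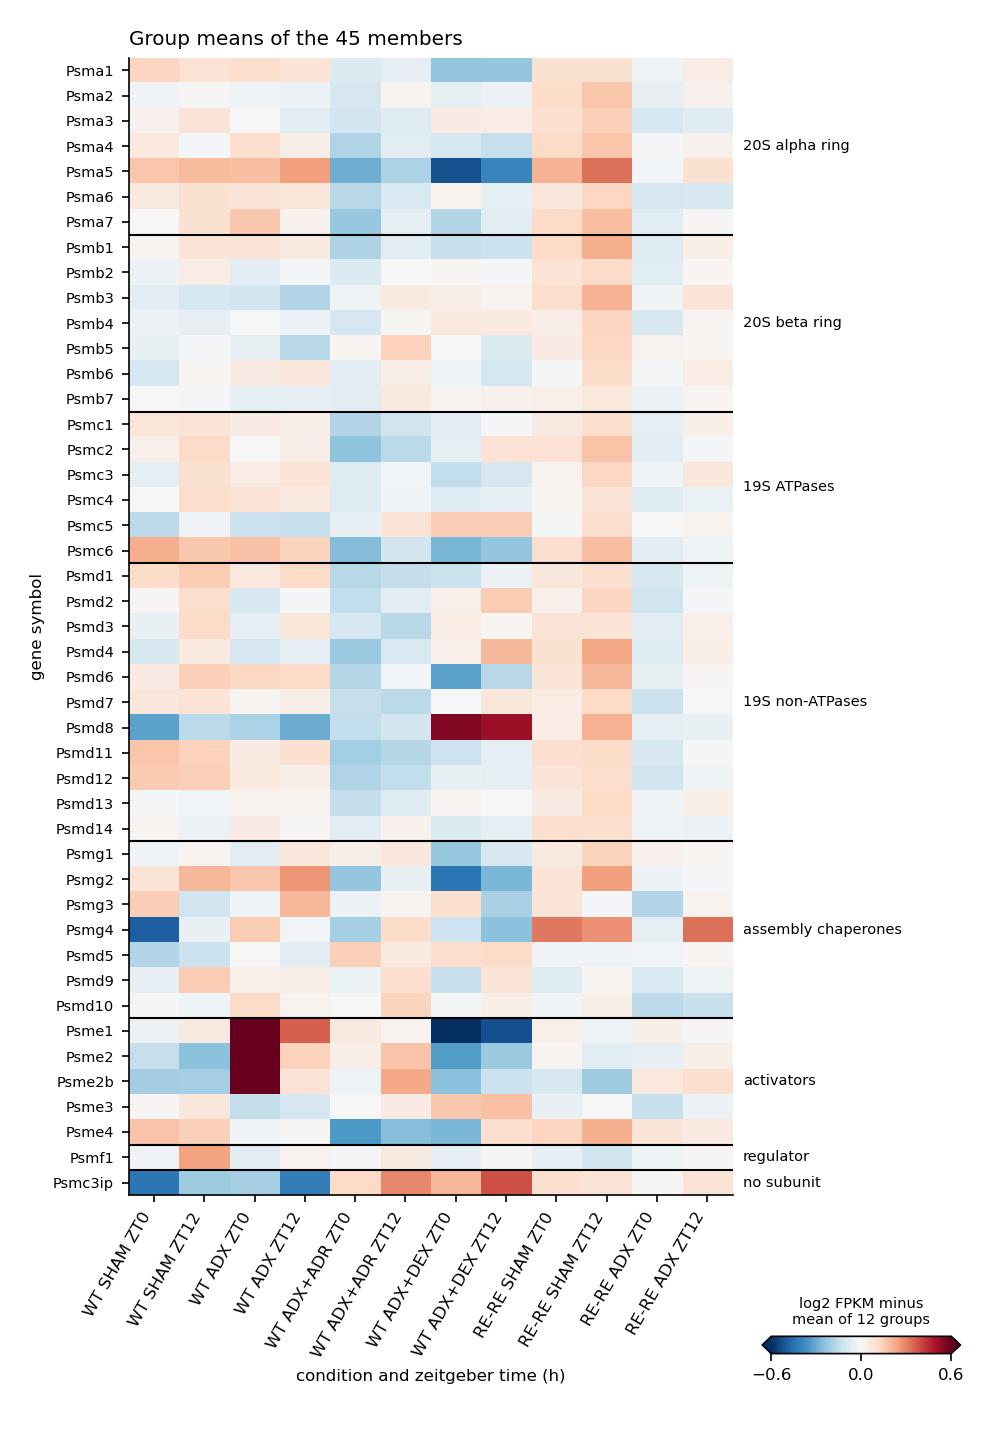
Each row is a member, ordered by class, and each column 1 of the 12 groups; colour gives the log2 group mean minus the mean of the 12 groups, limited to 0.6 either way. Most alpha-ring, ATPase and non-ATPase genes are low in the ADR columns, whereas Psmd8 is high in both DEX columns.

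With adrenaline the summed core level was below that with adrenalectomy alone, without overlap. At ZT0 it was 1375.5 to 1389.2 FPKM against 1463 to 1614.7, and at ZT12 1423.3 to 1487.6 against 1491.5 to 1528.4. With dexamethasone it overlapped that of adrenalectomy alone at both times (1459.5 to 1516 and 1427.5 to 1580.5 FPKM), though several subunits fell. With adrenaline at ZT0, 25 of 45 members fell and 1 rose, where 24.3% of all 12000 genes fell and 26.8% rose. The member median was a log2 change of -0.12 and that of all genes 0.01. With adrenaline at ZT12, 18 fell and 6 rose (all genes: 25.3% and 27.7%), with medians of -0.06 and 0.01. With dexamethasone at ZT0, 20 fell and 6 rose (all genes: 32.5% and 36.4%), with medians of -0.10 and 0.04. With dexamethasone at ZT12, 16 fell and 10 rose (all genes: 31.7% and 34.6%), with medians of -0.06 and 0.02. There the share that fell is near the background. Here and below, rose and fell mean an adjusted p under 0.05 from limma over all 12000 genes. The ADR and DEX comparisons share the WT ADX libraries, so they are not independent of each other.

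Several marker lists moved with the same comparisons. The 10 endothelial genes summed to 222 to 280 FPKM in WT ADX muscle, 154 to 257 with adrenaline and 94.9 to 115 with dexamethasone. At ZT0 alone the sums were 226 to 280 FPKM with ADX and 154 to 168 with adrenaline, without overlap. At ZT12 they overlapped, at 222 to 233 and 175 to 257 FPKM. With dexamethasone 9 of 10 fell at ZT0 and 8 at ZT12, and with adrenaline 7 and 6, while 1 rose each time. Of all genes 32.5% and 31.7% fell with dexamethasone and 24.3% and 25.3% with adrenaline. None of these markers was listed at 0 throughout a group, and the summed muscle fibre list (9 genes) stayed between 44820 and 68190 FPKM. Fewer cells of a type and less RNA per cell cannot be told apart in bulk tissue. The 9 immediate stress genes summed to 10.1 to 84.8 FPKM in WT ADX muscle, 152.5 to 482 with adrenaline and 156 to 222 with dexamethasone, without overlap. These sums include Fos, listed at 0 in all WT ADX libraries at ZT0, and Junb, listed at 0 in all DEX libraries at ZT0. The 4 tendon markers summed at ZT12 to 1.19 to 17.4 FPKM in WT ADX muscle, 36.2 to 80.5 with adrenaline and 30.5 to 64.8 with dexamethasone. The part of these lists in the subunit levels was not tested.

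**Figure D2:**
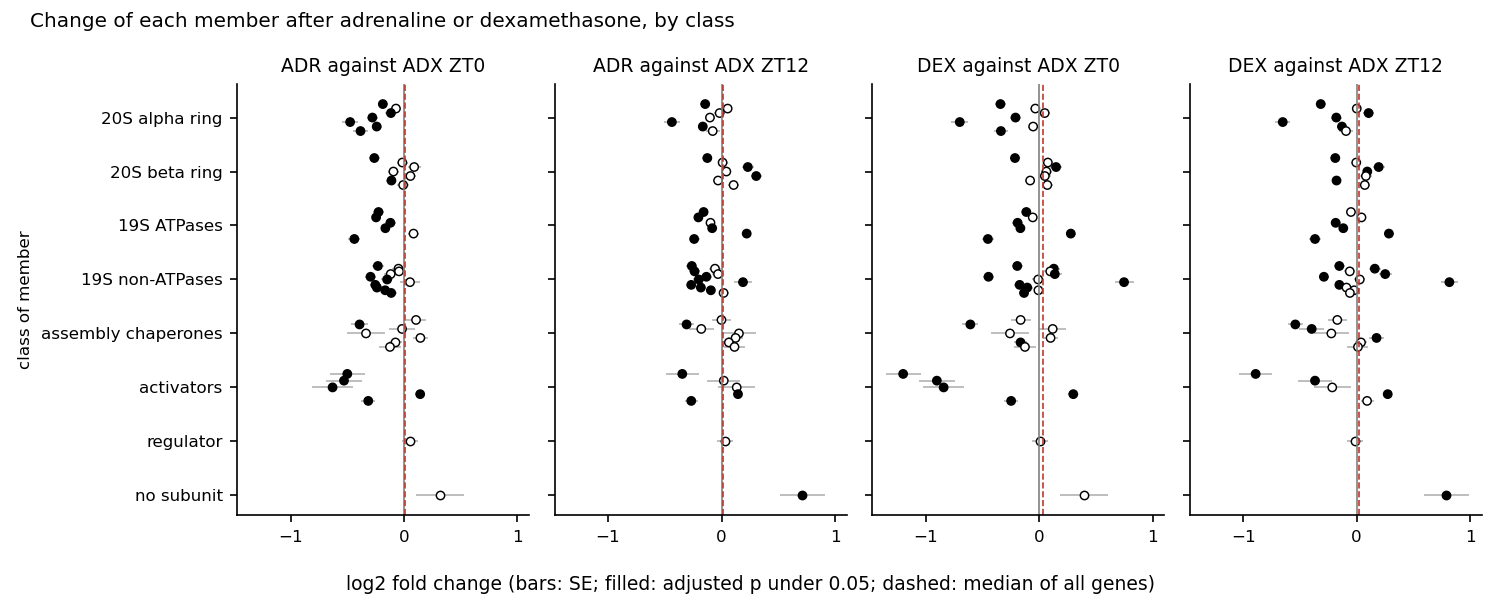
Log2 change of each member by class in 4 panels, ADR or DEX against ADX at ZT0 and ZT12; bars are standard errors, filled points have an adjusted p under 0.05, and the dashed line is the median of all genes. With adrenaline at ZT0 the filled alpha-ring and ATPase points all lie below 0; with dexamethasone Psmd8 stands far above the other non-ATPases.

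The alpha ring fell nearly as a whole with adrenaline at ZT0 and in part otherwise. At ZT0 6 of its 7 genes fell and none rose, and at ZT12 3 fell. With dexamethasone 4 fell at ZT0 and none rose, and at ZT12 4 fell and 1, Psma3, rose (log2 change 0.11 ± 0.05 SE, adjusted p = 0.037). The Psma3 rise was not called without the libraries that stand apart, none of which is in these groups. Psma5 (chromosome 3, 108256926 to 108279974, plus strand, GRCm38), an alpha-ring subunit, had the largest fall of the core. It was at 27.1, 22.8 and 22.7 FPKM in the WT ADX libraries at ZT0 and at 24.5 to 26.0 at ZT12. It was at 19.7, 16.9, 15.5 and 17.5 FPKM with adrenaline at ZT0 and at 15.6, 14.2, 14.3 and 15.4 with dexamethasone. All injected libraries were below all WT ADX libraries at either time. The Psma5 log2 change with adrenaline was -0.47 ± 0.07 at ZT0 (adjusted p = 1.7e-06) and -0.44 ± 0.07 at ZT12 (adjusted p = 1.7e-06). With dexamethasone it was -0.70 ± 0.07 at ZT0 (adjusted p = 1.2e-10), a level 0.616 of that with ADX alone, and -0.65 ± 0.07 at ZT12 (adjusted p = 1.5e-10). Psma7 fell with adrenaline at ZT0 (log2 change -0.38, adjusted p = 8.5e-06), and Psma1 fell with dexamethasone at both times (-0.34 and -0.32). Psma1 libraries lay at 39.8 to 42.3 FPKM in WT ADX muscle at ZT0 and at 32.3 to 32.9 with dexamethasone, without overlap.

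The beta ring, which holds the cutting sites, moved less and in both directions. With adrenaline 2 of 7 genes fell at ZT0, and at ZT12 2 rose and 1 fell. With dexamethasone 1 rose and 1 fell at ZT0, and 2 rose and 2 fell at ZT12. Psmb5, the chymotrypsin-like subunit, was at 41.6, 39.6, 38.2 and 40.1 FPKM in WT ADX muscle at ZT12. With adrenaline at ZT12 it was at 47.1, 49.3, 49.8 and 50.9 FPKM, above every WT ADX library, and rose by a log2 change of 0.31 ± 0.05 (adjusted p = 3.5e-06). At ZT0 its log2 change with adrenaline was 0.06 ± 0.05 (95% interval -0.05 to 0.16), and with dexamethasone 0.05 at ZT0 and 0.08 at ZT12, none past the test. Psmb3, a structural subunit, rose with adrenaline at ZT12 (0.23, adjusted p = 3.0e-04) and with dexamethasone at ZT0 (0.15) and ZT12 (0.20). Psmb6, the caspase-like subunit, was at 53.1, 54.6, 51.2 and 51.0 FPKM in WT ADX muscle at ZT12 and at 44.2, 48.9, 45.8 and 46.8 with dexamethasone. This fall without overlap had a log2 change of -0.18 ± 0.04 (adjusted p = 2.9e-04). With adrenaline at ZT0 Psmb6 fell by 0.11 on the log2 scale (adjusted p = 0.036), with overlapping libraries. That call was lost on leaving out WT ADX replicate 1 or 3, or ADR replicate 3 or 4, with log2 changes of -0.16 to -0.05 over the single omissions. Psmb7 changes lay between -0.01 and 0.11 and none passed.

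The ATPases, which unfold the substrate and thread it into the core, fell or did not pass, except Psmc5. With adrenaline 5 of 6 fell at ZT0, and at ZT12 4 fell while Psmc5 rose. With dexamethasone 4 fell at ZT0 and 3 at ZT12, and Psmc5 rose at both. Psmc6 (chromosome 14, 45329788 to 45349705, plus strand), 1 of the ATPases, was at 75.5, 75.6 and 74.6 FPKM in WT ADX muscle at ZT0. It was at 58.6, 52.8, 53.0 and 57.9 FPKM with adrenaline and at 55.4, 51.9, 56.4 and 56.6 with dexamethasone at ZT0, well below the controls. At ZT12 the ADX libraries were at 68.2 to 77.3 FPKM, those with adrenaline at 60.4 to 63.4 and those with dexamethasone at 51.4 to 61.3, again without overlap. The Psmc6 log2 change with adrenaline was -0.44 ± 0.05 at ZT0 (adjusted p = 2.3e-08) and -0.24 ± 0.05 at ZT12 (adjusted p = 9.1e-05). With dexamethasone it was -0.45 ± 0.05 at ZT0 (adjusted p = 1.7e-09) and -0.37 ± 0.05 at ZT12 (adjusted p = 3.6e-08).

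Psmc5, the ATPase that rose, lay at 71.0 to 82.3 FPKM in WT ADX muscle at ZT0 and at 87.7 to 94.9 with dexamethasone, with no overlap. Its log2 change was 0.28 ± 0.05 (adjusted p = 1.3e-06) at ZT0 and 0.29 ± 0.04 (adjusted p = 2.7e-07) at ZT12. With adrenaline Psmc5 rose at ZT12 (0.22, adjusted p = 3.8e-05) and was at 77.4 to 84.1 FPKM at ZT0, where it overlapped the controls and did not pass. Psmc4, another ATPase, fell by the same small amount with adrenaline and dexamethasone at ZT0, from 35.7 to 39.1 FPKM down to 33.3 to 34.3 and 33.4 to 33.9 (log2 change -0.16 ± 0.04 each, adjusted p = 5.2e-04 and 2.6e-04). At ZT12 its log2 change was -0.12 with dexamethasone (adjusted p = 0.0040) and -0.08 with adrenaline (adjusted p = 0.048). The last call was lost under 7 of 8 single omissions (log2 change -0.09 to -0.08), all but that of ADR replicate 8.

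The non-ATPases of the cap bind ubiquitin, hold the lid together or cleave ubiquitin off. With adrenaline 7 of 11 fell at both times, none rose at ZT0 and 1 at ZT12. With dexamethasone 5 fell and 3 rose at ZT0, and 3 fell and 3 rose at ZT12. Psmd8 (chromosome 7, 29174188 to 29180701, minus strand), a subunit of the lid, went furthest against the rest. Its libraries were at 67.0, 58.6 and 51.8 FPKM in WT ADX muscle at ZT0 and at 108, 91.8, 86.7 and 111 with dexamethasone. At ZT12 they were at 51.1, 52.0, 52.4 and 64.5 FPKM with ADX and at 92.8, 99.4, 90.1 and 105 with dexamethasone. Every DEX library was above all of the other 39 libraries. The log2 rise was 0.75 ± 0.08 at ZT0 (1.68-fold, adjusted p = 6.0e-10) and 0.82 ± 0.08 at ZT12 (1.76-fold, adjusted p = 1.7e-11). With adrenaline Psmd8 was at 58.6 to 64.7 FPKM at ZT0, within the control range (log2 change 0.05 ± 0.08), and rose by 0.19 ± 0.08 at ZT12 (adjusted p = 0.039) with overlapping libraries, a call lost without the libraries that stand apart.

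**Figure D3:**
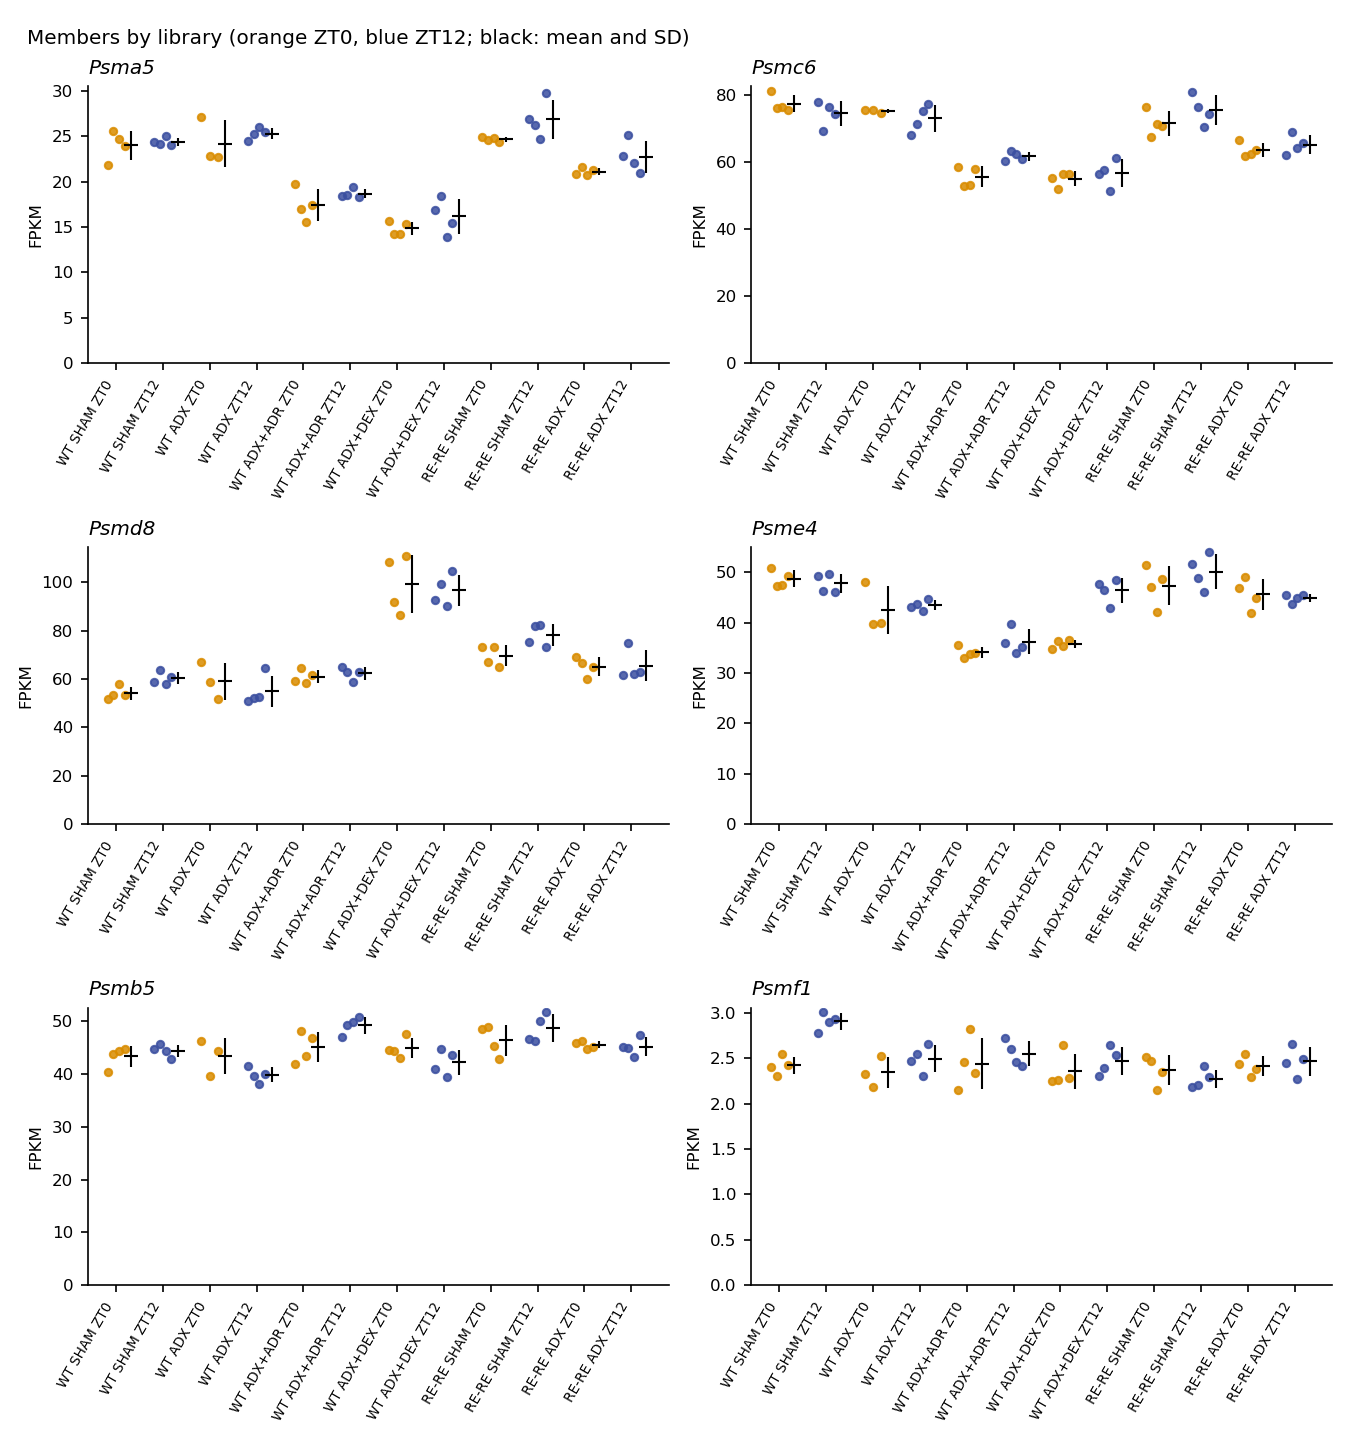
FPKM in every library of the 12 groups for Psma5, Psmc6, Psmd8, Psme4, Psmb5 and Psmf1; orange dots are ZT0, blue dots ZT12, and black marks the mean and SD. Psma5 and Psmc6 are lowest in the injected groups, the 8 DEX libraries of Psmd8 (86.7 to 111 FPKM) lie above all others, and Psme4 with dexamethasone is low at ZT0 only.

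Other cap subunits fell in both injected groups. Psmd6, a lid subunit, was at 55.9 to 62.7 FPKM in WT ADX muscle at ZT0, at 45.7 to 49.96 with adrenaline and at 40.7 to 46.1 with dexamethasone, without overlap. Its log2 change was -0.29 with adrenaline (adjusted p = 6.6e-06) and -0.45 with dexamethasone (adjusted p = 4.7e-10). Psmd11 fell in all 4 comparisons, by 0.15 to 0.27 on the log2 scale, and so did Psmd1 (-0.26 to -0.15). Psmd4, the ubiquitin receptor, rose with dexamethasone at ZT0 (log2 change 0.14, adjusted p = 0.041, libraries overlapping) and at ZT12 (0.25, adjusted p = 1.8e-04), the former not called without the libraries that stand apart. Psmd14, the lid enzyme that cuts ubiquitin off, changed little. It was at 18.6 to 19.3 FPKM in WT ADX muscle at ZT0, at 17.2 to 18.0 with adrenaline (log2 change -0.11, adjusted p = 0.046) and at 16.3 to 18.5 with dexamethasone (-0.13, adjusted p = 0.014). The first call was lost under 6 of 7 single omissions, all but that of ADR replicate 4. The second was lost without WT ADX replicate 1 or DEX replicate 2 (log2 changes of -0.17 to -0.11 over the single omissions). At ZT12 Psmd14 log2 changes were 0.02 with adrenaline and -0.06 with dexamethasone and did not pass.

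Of the 7 assembly chaperones, which build the rings and the base, 1 fell with adrenaline at both times, and 2 fell with dexamethasone at each time. Psmg2, 1 partner of the pair that starts the alpha ring, accounted for all the falls with adrenaline. It was at 18.5, 17.0 and 18.3 FPKM in WT ADX muscle at ZT0, at 12.9 to 14.7 with adrenaline and at 9.87 to 13.6 with dexamethasone. No injected library reached the controls. Its log2 change was -0.39 with adrenaline (adjusted p = 2.6e-05) and -0.61 ± 0.07 with dexamethasone (adjusted p = 2.3e-09) at ZT0, and -0.31 and -0.54 at ZT12. Psmg3 fell with dexamethasone at ZT12 from a low level (log2 change -0.40, adjusted p = 0.0016) and Psmd9 at ZT0 (-0.16). Psmd5 rose with dexamethasone at ZT12 (0.18). Psmc3ip, no subunit, rose at ZT12 with adrenaline (0.71, adjusted p = 0.0025) and dexamethasone (0.79, adjusted p = 5.8e-04), at a level of about 1 FPKM.

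The activators replace or accompany the cap. Psme1 and Psme2 form the interferon-inducible ring that favours peptide cutting, Psme3 forms its nuclear counterpart, and Psme4 is a large single-chain activator. Psme1 (chromosome 14, 55578123 to 55581529, plus strand) was at 16.9, 16.9 and 36.2 FPKM in WT ADX muscle at ZT0 and at 18.8, 19.3, 19.3 and 18.7 at ZT12. With dexamethasone it was at 9.44, 11.3, 10.5 and 7.25 FPKM at ZT0 and at 10.3, 10.5, 11.3 and 9.10 at ZT12. The DEX libraries were below all others in the study. The Psme1 log2 change was -1.20 ± 0.16 at ZT0 (adjusted p = 1.6e-08) and -0.89 ± 0.14 at ZT12 (adjusted p = 1.4e-06). Psme2 fell with dexamethasone at ZT0 (-0.90, adjusted p = 5.2e-06) and ZT12 (-0.37, adjusted p = 0.028), and its copy Psme2b at ZT0 (-0.84, adjusted p = 7.8e-05).

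The third WT ADX library at ZT0 weighed on these values. It was the highest of all 47 for Psme1, Psme2 (17.2 FPKM), Psme2b (11.9) and the 3 immunoproteasome genes, and it also held 6.10 FPKM of Irf7 and 120 of Cd74. Without it, the dexamethasone changes at ZT0 were -0.83 for Psme1 (adjusted p = 3.4e-07), -0.54 for Psme2 (adjusted p = 5.0e-04) and -0.53 for Psme2b (adjusted p = 0.0076). The falls with adrenaline at ZT0 were -0.50 for Psme1 (adjusted p = 0.0073), -0.53 for Psme2 (adjusted p = 0.0056) and -0.63 for Psme2b (adjusted p = 0.0034). Without that library they did not pass, with log2 changes of -0.13 (adjusted p = 0.39), -0.17 (adjusted p = 0.31) and -0.32 (adjusted p = 0.13). With adrenaline at ZT12 Psme1 fell by 0.35 on the log2 scale (adjusted p = 0.041), a call lost under 6 of 8 single omissions (-0.39 to -0.28; kept without ADR replicates 5 and 6).

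**Figure D4:**
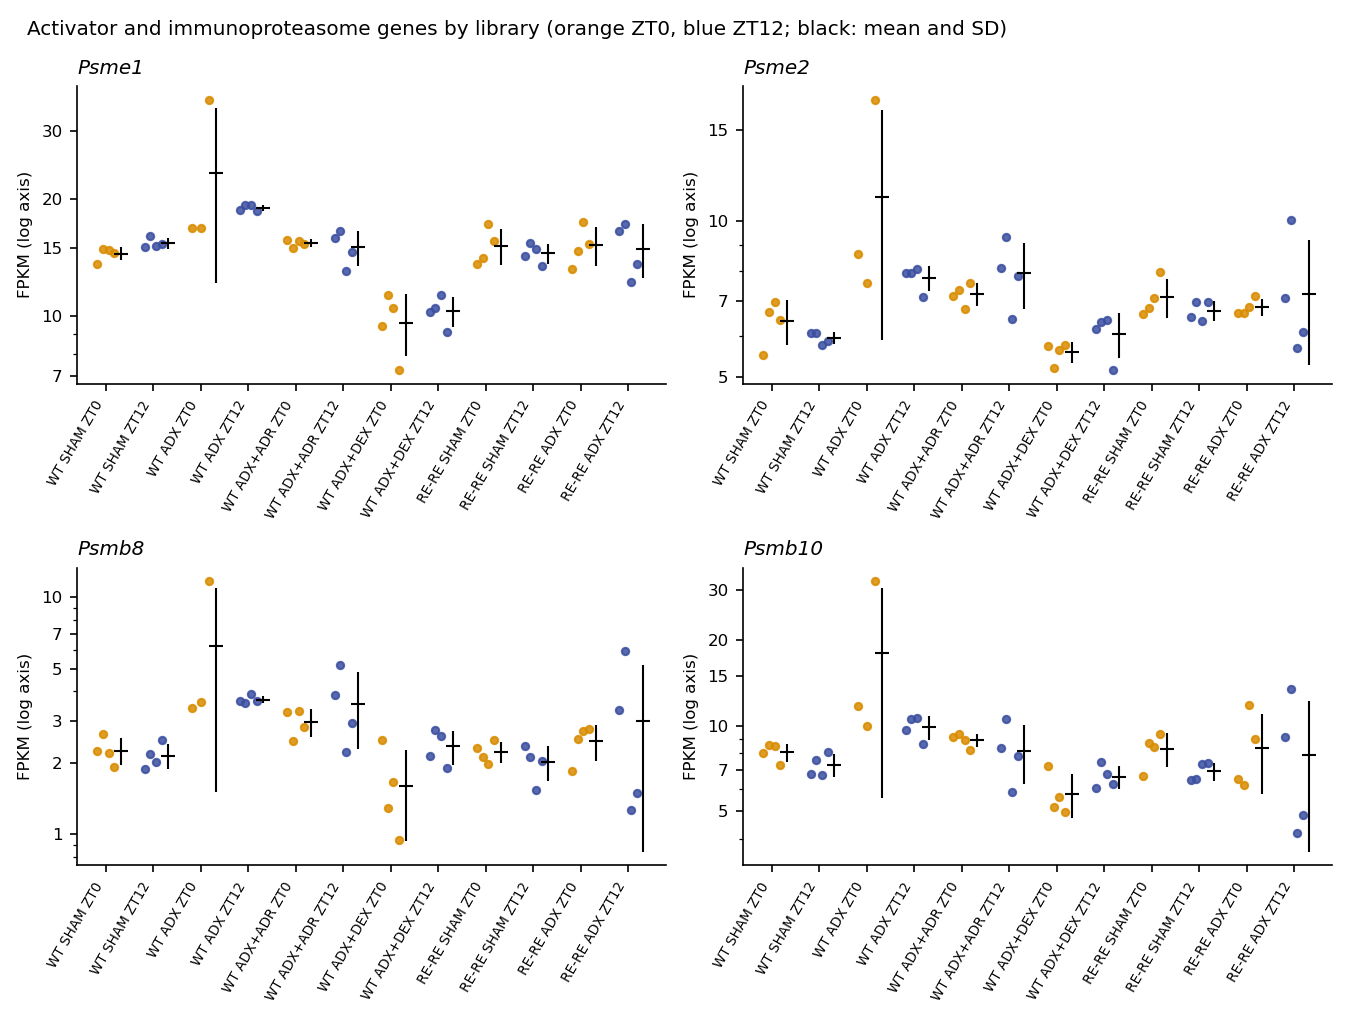
FPKM on a log axis in every library of the 12 groups for Psme1, Psme2, Psmb8 and Psmb10; orange dots are ZT0, blue dots ZT12, and black marks the mean and SD. The third WT ADX library at ZT0 is the highest for all 4 genes, and the DEX libraries of Psme1 lie between 7.25 and 11.3 FPKM, below every other library.

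The interferon-inducible catalytic subunits Psmb8, Psmb9 and Psmb10, which replace Psmb5, Psmb6 and Psmb7 in the immunoproteasome, are not members and were read beside Psme1. All 3 fell with dexamethasone at ZT0 (log2 changes of -1.80, -1.63 and -1.45; adjusted p = 3.1e-05, 2.0e-04 and 2.3e-05). At ZT12 Psmb9 fell (-1.10, adjusted p = 0.0052) and Psmb10 fell at the edge of the threshold (-0.58), while Psmb8 at -0.67 did not pass (adjusted p = 0.072). The 8 interferon-response genes summed to 36.1 to 77.1 FPKM in WT ADX muscle, 12.0 to 45.9 with adrenaline and 6.79 to 17.8 with dexamethasone. At ZT0 the 11 macrophage markers summed to 80.3 to 205 FPKM in WT ADX muscle. With adrenaline they stood at 85.7 to 123 FPKM and with dexamethasone at 41.5 to 65.5. At ZT12 the same ranges were 57.7 to 74.2, 62.7 to 112 and 30.5 to 40.4 FPKM. At each time the macrophage sums with dexamethasone lay below those of WT ADX muscle without overlap. The part of these cells in the Psme1 and Psme2 levels was not tested.

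Psme3 rose where Psme1 fell. It was at 19.5, 20.1 and 19.1 FPKM in WT ADX muscle at ZT0, at 20.5 to 22.3 with adrenaline (log2 change 0.14, adjusted p = 0.0053) and at 23.3 to 24.8 with dexamethasone (0.30 ± 0.04, adjusted p = 8.4e-08). At ZT12 it rose by 0.15 and 0.27. Psme4 (chromosome 11, 30771726 to 30880361, plus strand) was at 48.1, 39.8 and 39.9 FPKM in WT ADX muscle at ZT0. It was at 33.1 to 35.5 FPKM with adrenaline and at 34.7 to 36.6 with dexamethasone at ZT0, below all of these controls. The log2 change was -0.31 ± 0.06 with adrenaline (adjusted p = 6.3e-05) and -0.25 ± 0.06 with dexamethasone (adjusted p = 6.1e-04). At ZT12 Psme4 fell with adrenaline (-0.27, adjusted p = 1.9e-04) and with dexamethasone did not pass (0.09, 95% interval -0.02 to 0.21). Psmf1, which binds the core and inhibits it in the test tube, stayed between log2 changes of -0.01 and 0.05 in the 4 comparisons and passed in none.

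Set directly against each other, dexamethasone and adrenaline differed most in Psmd8 and Psme1. At ZT0 14 members were higher with dexamethasone and 7 lower (all genes: 25.1% and 23.5%), and 13 of the 14 were core genes, 7 of them non-ATPases. At ZT12 11 were higher and 10 lower (all genes: 21.2% and 21.4%). Psmd8 was higher with dexamethasone by a log2 difference of 0.70 ± 0.08 at ZT0 (adjusted p = 1.9e-09) and 0.63 ± 0.08 at ZT12 (adjusted p = 2.7e-08). Psme1 was lower by -0.70 ± 0.14 (adjusted p = 1.1e-04) and -0.54 ± 0.14 (adjusted p = 0.0023). Psmd4 was higher at both times (0.26 and 0.28), Psmc5 at ZT0 (0.20) and Psme4 at ZT12 (0.36 ± 0.06, adjusted p = 2.9e-06). The chaperone Psmg1 was lower at ZT0 (-0.27, adjusted p = 0.0065) and Psmg4 at ZT12 (-0.38, adjusted p = 0.047). Psme2 was lower at both times (-0.37, adjusted p = 0.034, and -0.39, adjusted p = 0.032). Of these, Psmg4 was lost under 5 of 8 single omissions and Psme2 under 5 and 4 of 8, ADR or DEX libraries in each case. Psma5 was lower at both (-0.22, adjusted p = 0.0058, and -0.21, adjusted p = 0.010), with overlapping libraries. Psmb5 and Psmb6 were lower with dexamethasone at ZT12 (-0.22, adjusted p = 3.5e-04, and -0.15, adjusted p = 0.0040). Psmc4 did not differ past the test at either time (95% intervals of -0.07 to 0.07 and -0.11 to 0.04), nor did Psmd14, Psmb7 or Psmf1.

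Measured against intact WT muscle, the summed core level was lower with adrenaline, without overlap. At ZT0 it was 1375.5 to 1389.2 FPKM and in sham muscle 1497 to 1529.8, and the ZT12 ranges were 1423.3 to 1487.6 and 1526.5 to 1597.8. With dexamethasone it overlapped the sham level at both times (1459.5 to 1516 FPKM at ZT0 and 1427.5 to 1580.5 at ZT12). With adrenaline 19 members were lower and 3 higher at ZT0 (all genes: 23% and 20.2%), and 21 lower and 7 higher at ZT12 (21.9% and 17.1%). With dexamethasone 16 were lower and 8 higher at ZT0 (31.5% and 31.1%, so that the share lower is near the background), and 17 lower and 8 higher at ZT12 (28.1% and 24.6%). Psme4 was furthest below the sham level with adrenaline. It was at 50.9, 47.2, 47.6 and 49.3 FPKM in sham muscle at ZT0, against 35.5, 33.1, 33.8 and 34.0 with adrenaline, a log2 difference of -0.52 ± 0.06 (adjusted p = 8.7e-09). At ZT12 the difference was -0.40 (adjusted p = 7.9e-07). With dexamethasone Psma5 was lowest relative to sham (-0.69 at ZT0, adjusted p = 5.3e-11, and -0.60 at ZT12), and Psmd8 was 1.83-fold higher at ZT0 (0.87 ± 0.08, adjusted p = 5.0e-12). Psme1 lay below sham with dexamethasone (-0.61, adjusted p = 3.9e-04, and -0.58, adjusted p = 8.5e-04) and did not pass with adrenaline. Psmg2 was lower as well (-0.52 and -0.47), and Psmc5 was higher at both times (0.31 and 0.17). Psmd5 was higher at both times with dexamethasone (0.28, adjusted p = 3.1e-04, and 0.24, adjusted p = 0.0019) and with adrenaline (0.32, adjusted p = 1.3e-04, and 0.19, adjusted p = 0.019, the latter lost without sham or ADR replicate 6). Psma5 with adrenaline had log2 differences of -0.46 and -0.38, and Psmd11 of -0.31 at ZT12. Psme2 (0.40, adjusted p = 0.027) and Psme2b (0.43, adjusted p = 0.037) were higher with adrenaline at ZT12, calls lost under 4 and 6 of 8 single omissions. Psmb5 was higher there too (0.15, adjusted p = 0.015; lost without sham or ADR replicate 8). Psmg4 was higher with dexamethasone at ZT0 (0.37, adjusted p = 0.036) and Psmc5 with adrenaline at ZT0 (0.11, adjusted p = 0.032), both lost under 4 of 8 single omissions. Psmc4 was lower at ZT12 only (-0.13 with adrenaline and -0.16 with dexamethasone), and Psmb6 at ZT12 with dexamethasone (-0.12, adjusted p = 0.016; lost without sham replicate 6 or 8 or DEX replicate 5). Psmc6 with adrenaline had a log2 difference of -0.48 at ZT0 (adjusted p = 2.2e-09). Psmf1 was below sham at ZT12 only, with log2 differences of -0.19 with adrenaline (adjusted p = 0.025) and -0.23 with dexamethasone (adjusted p = 0.0038). The first was lost without sham replicate 6 or ADR replicate 7 or 8 (-0.22 to -0.16).

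Time of day moved few members. In intact WT muscle 9 of 45 were higher at ZT12 and none lower, against 14% and 9.5% of all genes, so the share of 20% is near the background. Psmf1, the regulator, was at 2.41, 2.31, 2.55 and 2.43 FPKM at ZT0 and at 2.78, 3.01, 2.90 and 2.93 at ZT12, without overlap (log2 change 0.26 ± 0.07, adjusted p = 0.0045). Psmg4, an alpha-ring chaperone, was at 2.64 to 3.25 and 3.80 to 4.13 FPKM (0.46 ± 0.15, adjusted p = 0.028), and Psmd9, a chaperone of the base, rose by 0.20. The other 6 were core genes that rose by 0.10 (Psmc4) to 0.16 (Psmd3), among them Psmb6 (0.12, adjusted p = 0.034). Psmb5, Psmb7, Psmd14, Psme1 and Psme4 did not pass. Leaving out the libraries that stand apart left 2 calls, Psmd9 (0.23, adjusted p = 0.027) and Psmf1 at the edge of the threshold (0.26). Single omissions left 5 (ZT0 replicate 1 or 4, ZT12 replicate 8) or 3 (ZT12 replicate 6). Counts under such alternative settings, here and below, are given without the share of all genes called. They do not tell fewer calls in general from fewer among members.

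After adrenalectomy of WT mice no member differed between the times (7.64% of all genes were higher and 3.38% lower at ZT12). At an unadjusted p under 0.05 there were 5. All genes were not counted at that looser threshold, here or below, so such counts have no background beside them. Leaving out ZT0 replicate 1 or 2 gave 3 or 2 calls at the adjusted threshold. With adrenaline 3 members were higher at ZT12 and none lower (all genes: 6.28% and 6.45%), namely Psmd6 (0.16, adjusted p = 0.018), Psmc6 (0.15, adjusted p = 0.032) and Psmc5 (0.13, adjusted p = 0.035). That count was 1 without ZT0 replicate 3 or ZT12 replicate 6 or 7, 0 without ZT12 replicate 8 and 8 without ZT12 replicate 5, and 5 with age as a covariate. With dexamethasone 5 were higher at ZT12 and 1 lower (all genes: 14.7% and 13.2%). Psme4 had the largest of these differences. It was at 34.7, 36.4, 35.4 and 36.6 FPKM at ZT0 and at 47.8, 46.5, 43.0 and 48.4 at ZT12, a log2 rise of 0.38 ± 0.06 (adjusted p = 2.8e-06) with no overlap. Psmd9 rose by 0.21, Psmd4 by 0.16, Psmd6 by 0.15 and Psmc2 by 0.14, and Psmg3 fell by 0.30. The Psmg3 call was lost under 5 of 8 single omissions (-0.39 to -0.23) and without the libraries that stand apart, and that of Psmd4 under 4 of 8 (ZT0 replicates 2 and 3, ZT12 replicates 6 and 8). A fit of these 2 groups alone gave 2 calls, and the omission of ZT12 replicate 7 gave 10 and that of ZT0 replicate 3 gave 3.

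In RE-RE muscle no member passed for time of day. In sham-operated RE-RE mice 5.73% of all genes were higher at ZT12 and 5.03% lower at the adjusted threshold. There 10 members had an unadjusted p under 0.05, a looser threshold at which all genes were not counted. Leaving out ZT0 replicate 1 or 4 or ZT12 replicate 7 or 8 gave 1 to 3 calls. In adrenalectomized RE-RE mice 0.592% of all genes were higher and 0.183% lower at the adjusted threshold. Again 10 members had an unadjusted p under 0.05, a count that cannot be set against those shares. Psmf1 in RE-RE sham muscle at ZT12 lay at 2.19, 2.20, 2.41 and 2.29 FPKM, below all 4 WT sham libraries of that time.

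The time differences themselves were compared. Between WT ADX and WT sham no member differed in its time difference (0.667% of all genes were higher and 0.875% lower). At an unadjusted p under 0.05, where all genes were not counted, there were 9. Between dexamethasone and adrenaline 1 member differed upward and 2 downward (all genes: 7.6% and 5.99%). The Psme4 time difference was larger with dexamethasone by 0.29 ± 0.08 (adjusted p = 0.013). Those of Psmb5 (-0.22 ± 0.07, adjusted p = 0.031) and Psmb6 (-0.18 ± 0.06, adjusted p = 0.034) were smaller. With adrenaline Psmb5 went from 42.0 to 48.2 FPKM at ZT0 to 47.1 to 50.9 at ZT12, and with dexamethasone from 43.1 to 47.6 to 39.5 to 44.8. Without the libraries that stand apart only Psme4 was left. The count was also 1 without ADR replicate 3 (ZT0) or 7 (ZT12), or DEX replicate 4 (ZT0) or 5 (ZT12).

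After adrenalectomy of WT mice the core genes were near the sham level, in a comparison where the ADX mice were all older. At ZT0 6 of 45 members rose and 3 fell (all genes: 12.6% and 19.4%), so that the share that rose is near the background. Of the 6, 3 were activators, 2 chaperones and 1 a beta-ring gene. The activators Psme2b (0.79 ± 0.18, adjusted p = 7.8e-04), Psme2 (0.71 ± 0.16, adjusted p = 8.0e-04) and Psme1 (0.59 ± 0.16, adjusted p = 0.0036) rose most, followed by the chaperone Psmg4 (0.63 ± 0.17, adjusted p = 0.0039). Psmb6 rose by 0.15 (adjusted p = 0.0072), a call lost without WT ADX replicate 1. Psme3 fell by 0.15 (adjusted p = 0.0079) and Psme4 by 0.20 (adjusted p = 0.012). Both calls were lost without WT ADX replicate 3, and that of Psme4 also without replicate 2. The lid subunit Psmd11 fell by 0.12 (adjusted p = 0.047), lost under 5 of 7 single omissions. Without WT ADX replicate 3, the library described above, 3 members were left. The log2 changes were then 0.22 for Psme1 (adjusted p = 0.20), 0.34 for Psme2 (adjusted p = 0.052), 0.48 for Psme2b (adjusted p = 0.039) and 0.44 for Psmg4 (adjusted p = 0.074). Fitting only these 2 groups left 1 call. The macrophage list stood at 53.0 to 64.9 FPKM in sham and 80.3 to 205 in ADX muscle at ZT0. At ZT12 it stood at 40.3 to 49.3 and 57.7 to 74.2 FPKM. Over both times the endothelial list was at 143 to 188 FPKM in sham and 222 to 280 in ADX muscle. The part of these lists was not tested.

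At ZT12 2 members rose and 5 fell after adrenalectomy (all genes: 10.3% and 16.6%). Psmf1 was at 2.78 to 3.01 FPKM in sham muscle and fell by a log2 change of -0.22 ± 0.07 (adjusted p = 0.013), without overlap. Psme3 fell by 0.17 (adjusted p = 0.0017) and Psmb5 by 0.16 (adjusted p = 0.016). Psme2 rose by 0.38 (adjusted p = 0.048) and Psmg3 by 0.31 (adjusted p = 0.031). The calls of Psmf1 and Psmb5 were lost without WT ADX replicate 6, and that of Psme2 under 7 of 8 single omissions (0.37 to 0.43; kept without WT ADX replicate 7). That of Psmg3 was lost without sham replicate 6 or 8 or WT ADX replicate 5 or 7 (0.24 to 0.37). The count of 7 was 4 without sham replicate 5, 3 without WT ADX replicate 6, 3 with age as a covariate and 3 without the libraries that stand apart.

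In RE-RE mice adrenalectomy lowered core subunits by small amounts at both times. At ZT0 12 members fell and none rose, against 3.89% and 1.56% of all genes, and 39 of 45 changes were negative. All 12 were core genes (4 alpha, 2 beta, 2 ATPase and 4 non-ATPase), and the member median was -0.12 against -0.01 for all genes. At ZT12 12 fell and none rose, against 3.55% and 1.77% of all genes, 11 of them core genes, with 37 negative changes and the same medians. Psma6, an alpha-ring gene, was at 87.5, 84.1, 78.6 and 82.9 FPKM in RE-RE sham muscle at ZT12 and at 71.3, 76.1, 67.6 and 71.8 after adrenalectomy. It fell without overlap, by a log2 change of -0.22 ± 0.04 (adjusted p = 0.0019). At ZT0 it fell by 0.17 (adjusted p = 0.012). Psmd12, a lid subunit, was at 46.9, 41.5, 42.7 and 44.2 FPKM at ZT0 and at 38.5, 38.7, 36.6 and 39.0 after adrenalectomy, again without overlap (-0.20 ± 0.04, adjusted p = 0.0069). Psma3 fell by 0.20 and 0.22 at the 2 times and Psmc6 by 0.17 and 0.21. Psma5 fell by 0.22 (adjusted p = 0.043) and 0.24 (adjusted p = 0.031), calls that were lost under 8 of 8 and 6 of 8 single omissions. At ZT12 Psmg2 (-0.26, adjusted p = 0.019; lost without sham replicate 5 or ADX replicate 7), Psmd8 (-0.26, adjusted p = 0.042; lost under 7 of 8 single omissions) and Psmc4 (-0.12, adjusted p = 0.034; lost under 4 of 8) also fell. Psmb5, Psmb6, Psmb7, Psmd14, Psme1, Psme4 and Psmf1 passed at neither time.

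These RE-RE counts rest on few libraries, 5 of 16 of which stand apart. Without those the calls were 2 at ZT0 (Psmd12 and Psma3, both at -0.25) and 1 at ZT12 (Psma6, -0.21), and with only the 2 groups fitted they were 0 and 2. Single omissions moved the ZT0 count to 1 (sham replicate 1), 6 (ADX replicate 2) or 19 (sham replicate 3) and the ZT12 count to 5 (sham replicate 5 or ADX replicate 7) or 7 (sham replicate 8 or ADX replicate 5). The 8 fibroblast and matrix genes summed to 317 to 357 FPKM in RE-RE sham and 431 to 554 in RE-RE ADX muscle at ZT12, and to 251 to 572 and 496 to 658 at ZT0. The macrophage list stood at 48.1 to 78.5 and 80.7 to 88.9 FPKM at ZT0. No macrophage marker and 1 fibroblast gene (at ZT0) passed the test, and the part of these lists was not tested.

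The adrenalectomy effect, averaged over both times, differed between the genotypes. It was lower in RE-RE than in WT mice for 19 members and higher for 1 (all genes: 8.63% and 13.8%). The 19 held 6 of 7 alpha-ring genes, 3 beta-ring genes, 3 ATPases, 3 non-ATPases, 2 chaperones and 2 activators. Psma5 differed by -0.26 ± 0.07 (adjusted p = 0.0051), Psmb1 by -0.21 ± 0.04 (adjusted p = 6.8e-04) and Psma6 by -0.19 ± 0.04 (adjusted p = 7.8e-04). Psme2 (-0.54, adjusted p = 0.0083), Psmg4 (-0.49, adjusted p = 0.023) and Psme1 (-0.43, adjusted p = 0.031) differed most in size. The calls of Psme1 and Psmg4 were lost without WT ADX replicate 3 at ZT0. That of Psme1 was also lost without RE-RE sham replicate 3 or RE-RE ADX replicate 1, 7 or 8. Psmf1 was the member with the higher effect (0.21, adjusted p = 0.027), lost without WT ADX replicate 2 (ZT0) or 6 (ZT12). Psmb6 (-0.14), Psmd14 (-0.17) and Psmc4 (-0.12) also passed. Without the libraries that stand apart 3 calls were left, Psma6, Psmb1 and Psma5.

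Between the sham-operated genotypes, RE-RE muscle had slightly more of some core subunits. At ZT0 8 members were higher in RE-RE and none lower (all genes: 12.5% and 11.6%), so that the share higher is near the background. Among the 8 were the chaperone Psmg4 and Psmc3ip, which is no subunit. At ZT12 10 were higher and 1 lower (9.22% and 10.1%). Psmd8 was at 73.3, 67.0, 73.5 and 65.0 FPKM in RE-RE and 51.9, 53.3, 57.9 and 53.3 in WT sham muscle at ZT0, without overlap. Its log2 difference was 0.36 ± 0.08 (adjusted p = 7.4e-04) at ZT0 and 0.37 ± 0.08 (adjusted p = 6.5e-04) at ZT12. Psmg4 was at 4.88 to 5.38 FPKM in RE-RE and 2.64 to 3.25 in WT at ZT0 (0.81 ± 0.15, adjusted p = 1.9e-04). Psmb3 was higher at ZT12 (0.31, adjusted p = 3.5e-05) and at ZT0 (0.17), Psmb4 at ZT12 (0.18, adjusted p = 0.0021), and Psmd4 at both (0.18, lost without RE-RE sham replicate 2, and 0.17). Psmd14 was higher at ZT12 (0.13, adjusted p = 0.037), a call lost without WT sham replicate 6 or 7 or RE-RE sham replicate 5 or 8. Psmf1 was the 1 member lower in RE-RE, at ZT12 (-0.35 ± 0.07, adjusted p = 2.6e-04). Without the libraries that stand apart 2 calls were left at ZT0, Psmg4 and Psmd8, and 6 at ZT12. The ZT0 count was 5 without RE-RE sham replicate 2 and 3 with only the 2 groups fitted, and the ZT12 count 7 without WT sham replicate 7 or RE-RE sham replicate 8. Other lists differed between these groups without overlap. The tendon markers summed to 43.2 to 93.4 FPKM in RE-RE and 2.89 to 33.9 in WT muscle at ZT0, and to 46.3 to 95.3 and 2.84 to 24.3 at ZT12. At ZT12 the fibroblast and matrix genes summed to 317 to 357 and 94.0 to 172 FPKM, and the immediate stress genes to 97.1 to 152 and 10.0 to 38.0. Of the latter, Fos and Fosb were listed at 0 in all WT sham libraries at ZT12. The part of these lists in the subunit differences was not tested.

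Genes that feed or assist the proteasome were read in lists beside the subunits, and no difference between a list and the subunits was tested. Of all genes 26.8% and 27.7% rose with adrenaline at ZT0 and ZT12, and 24.3% and 25.3% fell. With dexamethasone 36.4% and 34.6% rose, and 32.5% and 31.7% fell. Several list counts here and below are near these shares. Of the 12 ubiquitin ligases of muscle atrophy, 5 rose and 2 fell with adrenaline at each time, and 6 and 7 rose with dexamethasone while 1 and 2 fell. Fbxo32, the ligase atrogin-1, rose by log2 changes of 1.97, 1.74 (adrenaline), 2.47 and 1.93 (dexamethasone) at ZT0 and ZT12, and Fbxo31 by 1.44, 1.10, 1.87 and 1.42. Uba1, the main ubiquitin-activating enzyme, rose in the same 4 comparisons by 0.25, 0.26, 0.56 and 0.51. Vcp, the segregase that extracts substrates, fell in all 4, by 0.35, 0.38, 0.40 and 0.45. Usp14, the deubiquitinase bound to the cap, fell by 0.34, 0.20, 0.43 and 0.32.

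Of the 7 assembly and transcription genes, 4 fell and 1 rose with adrenaline at ZT0, 3 and 1 at ZT12, 4 and 2 with dexamethasone at ZT0, and 1 and 4 at ZT12. Nfe2l1 was at 127, 135 and 107 FPKM in WT ADX muscle at ZT0 and at 165, 185, 166 and 183 with dexamethasone, above all controls (0.51 ± 0.07, adjusted p = 9.9e-08). It rose at ZT12 with dexamethasone (0.26, adjusted p = 0.0010) and at ZT0 with adrenaline (0.23, adjusted p = 0.0076), and did not pass at ZT12 with adrenaline (0.15, adjusted p = 0.063). Pomp, the chaperone that joins the 20S rings, fell with adrenaline at ZT0 (-0.33, adjusted p = 2.1e-05) and with dexamethasone at ZT0 (-0.29, adjusted p = 5.6e-05) and ZT12 (-0.16, adjusted p = 0.0095). Ddi2, the protease that releases Nfe2l1, fell at ZT0 with adrenaline (-0.81) and dexamethasone (-0.72), and at ZT12 it fell with adrenaline (-0.29) and rose with dexamethasone (0.39).

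The other lists split in direction, with several counts near the shares of all genes given above. Of the 7 enzymes bound to the proteasome, 1 rose and 4 fell with adrenaline at ZT0 and 2 rose and 2 fell with dexamethasone. Of the 10 shuttle and extraction genes 3 rose and 3 fell with adrenaline at ZT0, and 6 rose and 2 fell with dexamethasone, where Faf1, a cofactor of Vcp, rose by 0.40. Of 11 chaperones 2 rose and 2 fell, and 5 rose and 2 fell, in the same comparisons. The small heat shock protein Cryab rose in all 4 hormone comparisons by 1.12, 1.46, 1.86 and 1.86. The ubiquitin receptor Adrm1, a cap subunit without a Psm symbol, rose with adrenaline at ZT0 (0.22, adjusted p = 0.0047) and with dexamethasone at ZT0 (0.30, adjusted p = 1.2e-04) and ZT12 (0.17, adjusted p = 0.015).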

How the data were processed

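Bulk RNA of tibialis anterior was sequenced in 47 libraries, per the labels. The authors deposited 1 table of log2 FPKM. Since the smallest entry (-6.64) corresponds to 0.01 FPKM, an offset of 0.01 FPKM was assumed. The tools named, per the submitters' processing notes, were HISAT2 2.1.0 and featureCounts 1.6.2 on GRCm38, with edgeR 3.30.0, Trim Galore 0.5.0 and FastQC 0.11.8. Their options and the strand setting are not given in the sources used here. Counts were not used, so the depth of each library is unknown. Of 13500 gene IDs, 13441 matched a name in GENCODE M21 and 59 did not.

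Genes with at least 1 FPKM in at least 3 libraries (12000) were fitted with limma 3.58.1 (R 4.3.3) on the deposited log2 values, as 1 model of 12 group means with 35 residual degrees of freedom. The prior variance followed the mean level, and p-values were Benjamini-Hochberg adjusted over all genes tested within each comparison, with a threshold of 0.05. The fit was tested on simulated data. Log2 changes are on the log2(FPKM + 0.01) scale of the deposited table, and values after ± in the report are standard errors of limma. Each comparison was repeated with age as a covariate, with only its own groups in the model, with the replicate number as a block, without the libraries that stand apart, without each library in turn, with libraries scaled to the same median, without the filter, and on log2(FPKM + 1). Members and lists were chosen with earlier results of these data known. Named with values were, per comparison, up to 3 called members with the largest rise and 3 with the largest fall at 1 FPKM or more, and Psmb5, Psmb6, Psmb7, Psmd14, Psmc4, Psme1, Psme4 and Psmf1 throughout, with members that went against their class; other members that are given library values were chosen after their values were seen. Promoter windows are from RefSeq, GRCm38.p6. Some genes of the lists are not reported here.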

Additional observations from a re-analysis of the deposited data

Results flagged for a closer look

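Of 132 groups of 4 libraries tested over 12 named members, 6 held a library far from the other 3, where chance alone marks about 1 in 20. Psmc6 was high at 81.2 FPKM in replicate 1 of WT sham at ZT0. Psmd8 was high at 64.5 FPKM in replicate 7 of WT ADX at ZT12 and at 75.0 FPKM in replicate 6 of RE-RE ADX at ZT12. Psmd14 was high at 18.0 FPKM in replicate 4 of ADR at ZT0, Psmf1 was high at 2.65 FPKM in replicate 3 of DEX at ZT0, and Psme2 was low at 7.12 FPKM in replicate 7 of WT ADX at ZT12. Effects that differed by a test of the difference itself were the time difference with dexamethasone against that with adrenaline (3 members) and the adrenalectomy effect in RE-RE against WT mice (20 members).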

How the results depend on the processing

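For 25 counts of called members, 338 of 400 alternative values lay within 1.5 times the count reported and 62 did not. Over 127 changes of named members there were 2043 alternative values, of which 1715 kept their call, 328 lost it and none changed direction. Most were single omissions (990 kept, 186 lost), which reuse nearly all libraries. The replicate block kept 56 calls and lost 49. Without the libraries that stand apart 87 were kept and 40 lost, and with only the groups compared 97 and 30. Without the libraries that stand apart, the counts were 2 for time of day in WT sham, 3 for WT adrenalectomy at ZT12, 2 and 1 for RE-RE adrenalectomy at ZT0 and ZT12, 2 and 6 for genotype, 1 for the time difference of DEX against ADR and 3 for the adrenalectomy effect between genotypes. With only the groups compared they were 2 for time with DEX, 1 for WT adrenalectomy at ZT0, 0 and 2 for RE-RE adrenalectomy and 3 for genotype at ZT0. Age as a covariate gave 5 for time with ADR and 3 for WT adrenalectomy at ZT12. Equal medians gave 1 for time in RE-RE sham and 19 for RE-RE adrenalectomy at ZT12. The cause of these shifts was not tested. The share of all genes called under each setting is not reported here, for the counts above or below. With fewer libraries or groups in the fit, fewer calls in general and fewer among members cannot be told apart.

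With the replicate number as a block, counts were 0 for adrenalectomy in either genotype at either time. They were 12 and 5 for ADR against ADX and 11 and 17 for DEX against ADX. For ADR against sham at ZT12 the count was 16, and for genotype 2 and 3. These fits held only the groups compared and a term for each number, which leaves fewer residual degrees of freedom than the main model. The share of all genes called is not reported here, so lower counts are not a result about the members. Same-numbered libraries had deviations that correlated at -0.137 to 0.248. Differently numbered libraries were not compared, so whether the numbers pair libraries is not known.

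Leaving out each library in turn gave 3 to 10 calls for time of day in WT sham, 0 to 3 in WT ADX, 0 to 8 with ADR, 3 to 10 with DEX and 0 to 3 in RE-RE sham. It gave 3 to 10 and 3 to 7 for WT adrenalectomy, 1 to 19 and 5 to 15 for RE-RE adrenalectomy, 5 to 11 and 7 to 11 for genotype, and 1 to 4 for the time difference of DEX against ADR. Depth is unknown, so the precision of members near 1 FPKM (Psmg3, Psmc3ip) cannot be stated.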
